A study of Mus musculus with 35 samples.

Results

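The posterior amygdala of C57BL/6J mice was compared between enriched and standard housing, using the 8 posterior libraries of this strain among the 35 libraries of the series. The members were chosen by their strain, portion and treatment labels, which gave 4 libraries from mice in enriched housing and 4 from mice in standard housing, each library from another mouse. All 8 mice were females of the inbred strain C57BL/6J that were food-restricted and trained in a test of optimism from postnatal day 70. The length of training depended on how fast each mouse learned, so that age at sampling varied too. The study described training as seemingly longer in C57BL/6J mice, most of all in standard housing, without statistical significance. Brains were taken some days after the last test, and the age of each mouse was not among the labels used here. From postnatal day 77, the enriched group spent 1 hour per day in a playground, whereas the standard group was mock-treated and stayed in standard housing. Cells of the basolateral amygdala were cut out with a laser capture microscope, and their RNA was amplified with a low-input kit and sequenced as single reads of 72 bases. The other libraries came from the anterior portion and from a hybrid strain, B6D2F1N. A behavioural label was given for 3 of the 8 mice, with 1 optimist in standard housing and 2 pessimists in enriched housing.

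Myelin is the lipid-rich sheath that oligodendrocytes wrap around axons, and its compact layers are held together by a few abundant proteins such as myelin basic protein. Oligodendrocytes arise from precursor cells under transcription factors of the SOX and OLIG families and MYRF, and in the adult brain new myelin can form in response to neuronal activity. Synaptic vesicle proteins carry out transmitter release, proteins of the postsynaptic density anchor receptors opposite the release site, and ribosomal proteins and translation factors make up the protein synthesis machinery.

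Reads assigned to genes numbered 16938534 to 26126984 in a library, and 21232 to 23469 genes had at least 1 count. The total counts, the number of genes detected, the share of reads on no annotated gene and the share of mitochondrial counts did not differ between the housings beyond the spread between mice (exact two-sided permutation tests over 70 splits, p = 0.171 to 0.771, with 0.0286 the smallest p that 4 against 4 mice allow). All 8 libraries had transcripts of Xist, the RNA of the inactive X chromosome, at 88.7 to 151 CPM (counts scaled to a common library size) and at most 1 count on the Y-linked Uty, Kdm5d, Ddx3y and Eif2s3y together. Summed CPM of excitatory neuron markers reached 2089 to 4303 in standard and 2245 to 6581 in enriched libraries, and Slc17a7, a vesicular glutamate transporter of cortical and basolateral neurons, was detected in every library. The first number in the library name was 7, 10, 9 and 15 in standard and 32, 36, 6 and 31 in enriched replicates 1 to 4. Its mean was 16 higher in enriched housing (26.25 against 10.25, exact two-sided permutation test, p = 0.143). The second number was 25 to 35 in standard and 6 to 14 in enriched libraries without overlap (exact two-sided permutation test, p = 0.0286), and what either number stands for is not given in the sources used here.

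Among 24526 genes tested, 4 rose with enriched housing and none fell (quasi-likelihood F test of edgeR, Benjamini-Hochberg adjusted p of at most 0.05). They were Mbp and Padi2, both genes of oligodendrocytes, Trp53inp2, and the non-coding 9130024F11Rik. These calls amount to 0.0163% of the genes tested. At an unadjusted p under 0.05, 1622 genes were higher (6.61%) and 893 lower (3.64%), and DESeq2's Wald test called 255 higher (1.04%) and 64 lower (0.261%). All 4 enriched libraries lay above all 4 standard libraries for 713 genes (2.91%) and below them for 498 genes (2.03%).

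Mbp on chromosome 18 encodes myelin basic protein, the main protein that compacts the myelin sheath. Its level was 2438, 2022, 1872 and 2298 CPM in the standard libraries and 9894, 11666, 5881 and 6419 CPM in the enriched libraries. The groups did not overlap, and the lowest enriched library was replicate 3. The means were 2157 ± 257 and 8465 ± 2778 CPM (SD, n = 4 each), a log2 fold change of 1.97 with a standard error of 0.27 (adjusted p = 0.0366). In bulk RNA of captured cells, more cells of a type and more RNA per cell cannot be told apart.

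Padi2 (4:140906344-140952586 on GRCm38) encodes a peptidylarginine deiminase, an enzyme that converts arginine residues of myelin basic protein and other proteins to citrulline. The standard libraries held 1.16, 1.66, 1.6 and 2.78 CPM of it, and the enriched libraries 9.39, 17.3, 11.8 and 13.8 CPM. All enriched values were above all standard values. Its log2 fold change was 2.86 ± 0.42 (SE), with an adjusted p of 0.0366. A predicted gene, Gm13031, overlaps it on the other strand, and the counting's strand setting is not given in the sources used here.

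Trp53inp2 (2:155381059-155389850) encodes a protein that takes part in the formation of autophagosomes. It was measured at 24.6, 28.9, 24.5 and 26.7 CPM in standard and at 70.6, 95.8, 54.3 and 78.7 CPM in enriched libraries. The standard libraries lay close together at 26.2 ± 2.05 CPM, and the enriched libraries stood apart from them. The log2 fold change was 1.52 ± 0.22 (SE, adjusted p = 0.0366).

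The processed transcript 9130024F11Rik (1:56971412-57050084) rose from 0.583 ± 0.219 to 9.08 ± 3.61 CPM (SD, n = 4 each), a log2 fold change of 3.95 ± 0.54 (SE, adjusted p = 0.0366). Its level was 0.499, 0.332, 0.842 and 0.66 CPM in standard and 8.5, 12.1, 4.2 and 11.6 CPM in enriched libraries, without overlap. Another annotated gene overlaps it, so that its reads may not be fully its own.

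No single gene kept its call when any 1 library other than enriched replicate 3 was left out, since each of these 7 fits called 0 genes. The adjusted p of the 4 genes then lay between 0.0624 and 0.297. The direction did not turn in any of these fits, with log2 fold changes of Mbp between 1.78 and 2.08 and of Padi2 between 2.69 and 3.14. Without enriched replicate 3, 93 genes were called higher (0.387%) and 79 lower (0.329%), and the adjusted p was 0.00324 for Mbp and 9130024F11Rik, 0.00346 for Trp53inp2 and 0.00845 for Padi2.

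**Figure D1:**
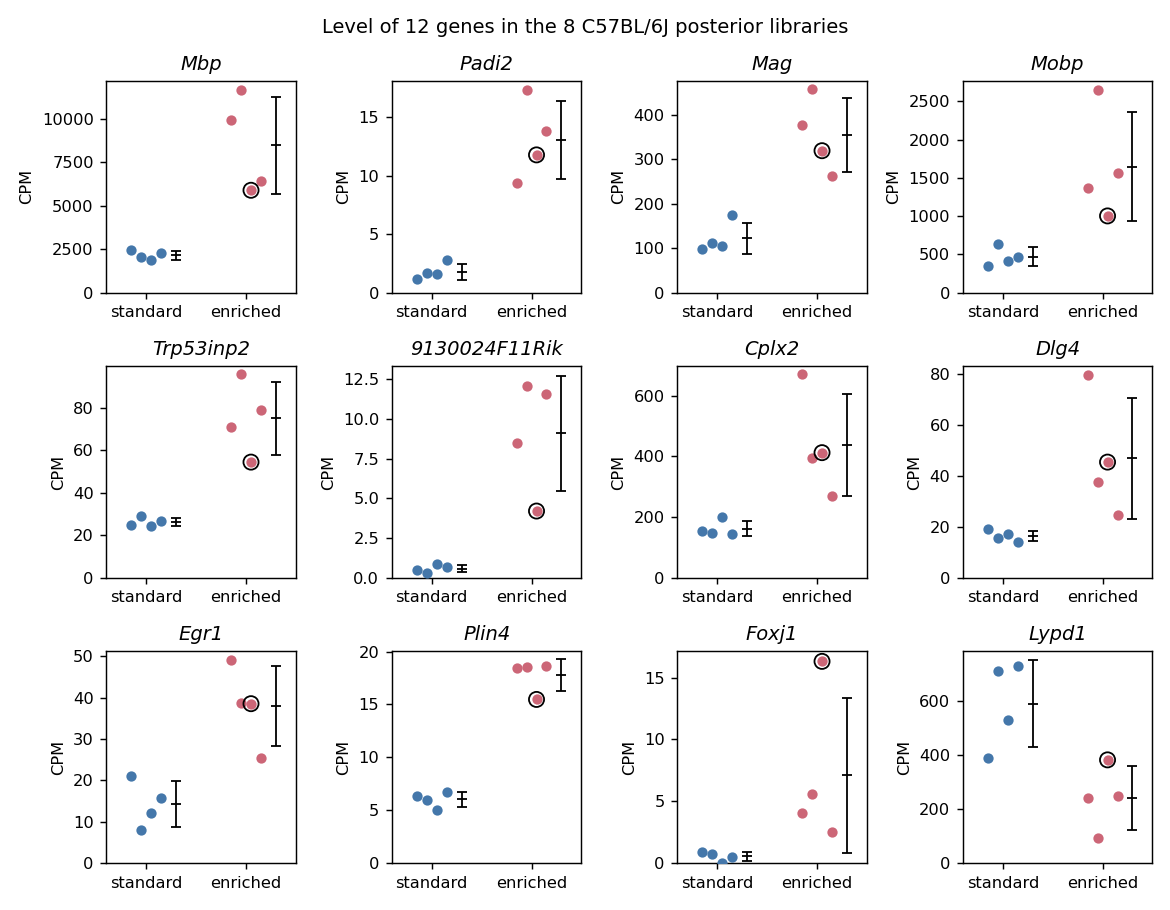
CPM (y axis, from 0) of 12 genes in the 8 C57BL/6J posterior libraries, each point being 1 mouse, with the mean ± SD beside the 4 points of each housing and enriched replicate 3 circled. Mbp, Padi2, Trp53inp2 and 9130024F11Rik passed the test, and in each of the other panels the groups are also apart, with Lypd1 lower in enriched housing. All 12 were named for small p-values or by the study, so that they do not stand for their lists. Over all genes tested, the groups were apart for 2.91% (higher) and 2.03% (lower).

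The myelin and mature oligodendrocyte list held 39 genes, of which 2, Mbp and Padi2, rose and none fell. The list was chosen with earlier results of these data known, so that its counts are not independent evidence. Its median log2 fold change was 0.97, against 0.02 for all genes tested. Every one of the 39 values was above 0, as were 12671 of the 24526 genes tested. At an unadjusted p under 0.05, 26 of them were higher (6.61% of all genes were) and none lower. DESeq2 called 16 higher (1.04% of all genes), and for 18 the enriched libraries lay above all standard libraries (2.91% of all genes). The summed CPM of the list was 10824 to 16207 in standard and 22196 to 36373 in enriched libraries.

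Mag, the myelin-associated glycoprotein of the sheath's innermost membrane, which faces the axon, was at 97.7, 111, 105 and 174 CPM in standard libraries. In enriched libraries it was at 378, 457, 319 and 262 CPM. Mobp, a structural protein of compact myelin, was at 351, 640, 411 and 471 CPM in standard and at 1367, 2652, 1003 and 1571 CPM in enriched libraries. Neither pair of groups overlapped, but the adjusted p was 0.0775 for Mag (log2 fold change 1.53 ± 0.25, SE) and 0.0821 for Mobp (1.82 ± 0.30) by edgeR, and 3.95e-06 and 3.65e-06 by DESeq2. Lgi3, a secreted protein of the LGI family that is no member of the list, had a log2 fold change of 1.71 ± 0.28 (SE) with an adjusted p of 0.0775, and its groups were apart too.

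The following members were chosen after their values were seen, to show the spread within the list. Cnp, an enzyme of non-compact myelin, had a log2 fold change of 1.30 ± 0.26 (SE). Mog, a glycoprotein of the sheath's outer surface, had a log2 fold change of 0.74 ± 0.29 (SE), with overlapping groups. Ppp1r14a was at 7.52 ± 3.85 and 7.57 ± 2.89 CPM (SD, n = 4 each). The difference between housings was thus uneven across myelin genes, from 0.01 for Ppp1r14a to 3.04 for Klk6 on the log2 scale, and Klk6 was at 25.6 and 24.4 CPM in enriched replicates 2 and 4 but at 3.58 and 1.53 CPM in replicates 1 and 3. Of the 39 members, 5, among them Carns1 and Trf, share at least 20% of their 72-base windows with another annotated gene. The values of these 5 are uncertain, as are those of Slc32a1, Mrps34 and Rps29. Annotated genes also overlap Cnp, Mobp, Bcas1, Olig1, Kcnab2, Plin4 and Lypd1, whose counts may hold reads of those neighbours.

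**Figure D2:**
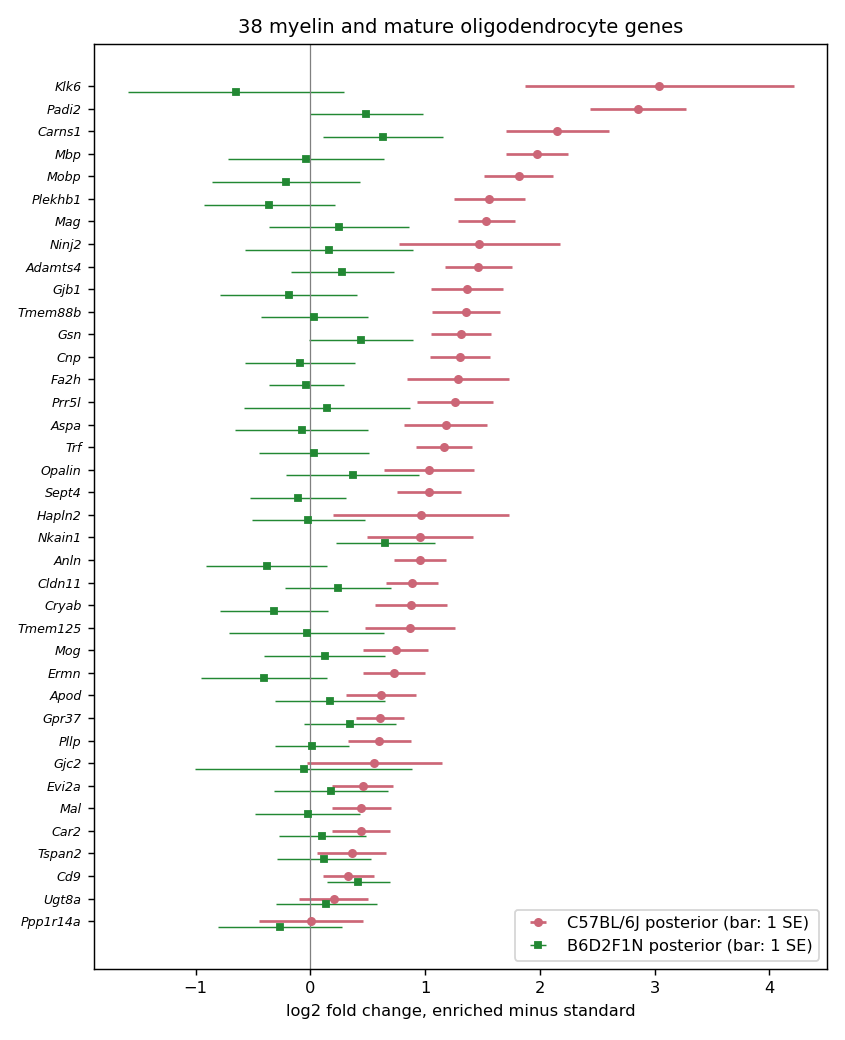
Log2 fold change of enriched against standard housing (x axis, bars 1 SE) for 38 of the 39 myelin and mature oligodendrocyte genes (y axis) in C57BL/6J posterior (circles) and B6D2F1N posterior libraries (squares). All circles lie above 0, between 0.01 and 3.04, whereas the squares lie on both sides of 0, with a median over the 39 genes of 0.04.

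The sequences upstream of the called Padi2 and of Mag and Mobp are shown because these myelin genes stood apart between the housings, and SOX and MYRF factors are known to drive myelin genes. They are the 250 bases before the RefSeq gene start on GRCm38.p6, 5′ to 3′ on the gene's strand, and capitals mark ACAAAG or ACAATG (SOX) and CTGGCAC or CTGGTAC (MYRF) on either strand. RefSeq promoters were matched for 28 of the 39 genes, and Mag has 3 start sites of which 1 is shown.
Padi2, chr4:140906110-140906359, plus strand: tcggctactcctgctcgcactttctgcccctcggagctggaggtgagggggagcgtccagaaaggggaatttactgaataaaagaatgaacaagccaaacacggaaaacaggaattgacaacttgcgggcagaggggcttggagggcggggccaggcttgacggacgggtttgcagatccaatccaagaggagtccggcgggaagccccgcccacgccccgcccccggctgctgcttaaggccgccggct
Mag, chr7:30914864-30915113, minus strand: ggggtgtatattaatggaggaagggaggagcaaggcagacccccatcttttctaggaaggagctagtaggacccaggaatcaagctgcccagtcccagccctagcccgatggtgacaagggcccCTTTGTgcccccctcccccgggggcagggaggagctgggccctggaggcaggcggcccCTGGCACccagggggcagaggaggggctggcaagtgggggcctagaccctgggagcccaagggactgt
Mobp, chr9:120149492-120149741, plus strand: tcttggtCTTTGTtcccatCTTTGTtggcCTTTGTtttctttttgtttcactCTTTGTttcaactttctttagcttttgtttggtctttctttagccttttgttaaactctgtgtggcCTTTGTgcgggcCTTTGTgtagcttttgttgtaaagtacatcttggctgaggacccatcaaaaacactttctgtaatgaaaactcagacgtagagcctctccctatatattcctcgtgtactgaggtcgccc
Mobp held 6 matches to ACAAAG, all on the other strand as CTTTGT, and the Mag window shown held 1 match to ACAAAG and 1 to CTGGCAC. Of the Mag windows not shown, window 2 overlaps this one and holds the same matches. Mag window 3 holds none of the motifs. None of the motifs lay in the Padi2 window. Among 32851 windows of the same length, 16.5% held ACAAAG, 10.7% ACAATG, 4.19% CTGGCAC and 1.83% CTGGTAC. Among the 40 windows of the 28 myelin genes, the shares were 30.0%, 17.5%, 10.0% and 2.5%. Windows of the same gene can overlap, as for Mag, so that a match can be counted more than once in these shares. These matches describe the letters of the windows and were not tested against the housing difference.

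Regulators of the oligodendrocyte lineage (12 genes) had a median log2 fold change of 1.03, and all 12 values were above 0, but none passed the test (4 higher at an unadjusted p under 0.05 and 2 by DESeq2, against 6.61% and 1.04% of all genes). Myrf, the transcription factor that switches on myelin genes, was at 21.1, 17.6, 13.6 and 23 CPM in standard and at 51.8, 47.8, 37.8 and 32.8 CPM in enriched libraries. The groups of Myrf were apart, with an adjusted p of 0.171. Olig1, a lineage transcription factor, had a log2 fold change of 1.18 ± 0.33 (SE) with overlapping groups.

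Markers of oligodendrocyte precursors (15 genes) had a median log2 fold change of -0.07, and none passed the test. Their summed CPM was 651 to 1171 in standard and 911 to 1117 in enriched libraries. Pdgfra, the growth factor receptor that defines these cells, was at 81.1 ± 31.8 and 64.8 ± 23.8 CPM (SD, n = 4 each). Bcas1, which marks cells in the act of forming myelin, stood apart between the housings, with 39.9, 98.6, 47.1 and 67.6 CPM in standard and 183, 390, 107 and 259 CPM in enriched libraries and an adjusted p of 0.144. Cholesterol synthesis, whose product is a main lipid of myelin, was covered by 23 genes with a median of 0.01 and none called. Of these, Srebf2, the transcription factor of the pathway, had a log2 fold change of 0.67 and Msmo1, an enzyme of it, one of -0.67, both uncalled.

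None of the 50 synaptic vesicle release genes passed the test. Their median log2 fold change was 0.24, with 15 higher and 5 lower at an unadjusted p under 0.05 (6.61% and 3.64% of all genes), and DESeq2 called 8 higher and none lower (1.04% and 0.261% of all genes). The summed CPM overlapped between housings, at 11983 to 15527 in standard and 11231 to 18154 in enriched libraries. Cplx2, a complexin that clamps and promotes vesicle fusion, was at 155, 146, 199 and 145 CPM in standard and at 671, 395, 412 and 270 CPM in enriched libraries. Its groups were apart, at a log2 fold change of 1.44 ± 0.27 (SE, adjusted p = 0.116). Syt2, a fast calcium sensor of release, was at 3.2, 3.57, 2.41 and 3.35 CPM in standard but at 65.7 and 59.4 CPM in enriched replicates 2 and 4 and at 5.01 and 4.75 CPM in replicates 1 and 3. Slc32a1, the vesicular transporter of GABA, had a log2 fold change of 1.34 ± 0.37 and Slc17a6, a vesicular glutamate transporter, one of -1.05 ± 0.32, neither past the threshold.

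Among 45 postsynaptic density genes, none passed the test, and the median log2 fold change was 0.18 (9 higher and 3 lower at an unadjusted p under 0.05, against 6.61% and 3.64% of all genes, and 1 higher by DESeq2, against 1.04%). Dlg4, the scaffold protein PSD-95, was the member with the smallest p. It was at 19, 15.7, 17.1 and 14 CPM in standard and at 79.8, 37.6, 45.4 and 24.6 CPM in enriched libraries, without overlap (log2 fold change 1.51 ± 0.32, SE, adjusted p = 0.167). Genes of the axon initial segment and node of Ranvier (27) had a median of 0.28, with none called. Kcnab2, a subunit of axonal potassium channels, was at 325 CPM in enriched replicate 1 and at 64.6 to 130 CPM in the other enriched libraries, against 37.5 to 53.3 CPM in standard libraries. Its adjusted p was 0.172.

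Of the machinery of translation, no gene was called by edgeR in the 8 libraries. Of 84 cytosolic ribosomal protein genes tested, none passed the test, and none had an unadjusted p under 0.05 by edgeR or a call by DESeq2. Their median log2 fold change was 0.10, with an interquartile range of 0.02 to 0.20, and their summed CPM was 4760 to 7852 in standard and 4131 to 10976 in enriched libraries. The highest and the lowest of these sums were both enriched libraries, replicates 2 and 3. Of the cytosolic list, 59 genes share at least 20% of their read-length windows with another annotated gene, which marks their values as uncertain. For these 59 genes the absence of calls therefore rests on uncertain values. The same mark applies to 12 mitochondrial ribosomal protein genes and 8 translation factors. Mitochondrial ribosomal protein genes (78) had a median of -0.06, with 0 higher and 6 lower at an unadjusted p under 0.05 (3.64% of all genes were lower), and for 2 of them the enriched libraries lay below all standard libraries (2.03% of all genes). DESeq2 called 1 of them lower, Mrps34 (log2 fold change -1.87 ± 0.55, SE, adjusted p = 0.0448), which edgeR called only without enriched replicate 3 (adjusted p = 0.294 with it and 0.00879 without). Translation factors (53) had a median of 0.03, which was -0.02 with upper quartile scaling in place of TMM. Eef2, the elongation factor that moves the ribosome along, had a log2 fold change of 0.78 ± 0.26 (SE) and Eif3f, a subunit of an initiation factor, 0.81 ± 0.26, both uncalled.

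Nuclear genes of oxidative phosphorylation (77) had a median log2 fold change of 0.13 with none called, and 63 values were above 0. At an unadjusted p under 0.05 by edgeR, 0 were higher and 4 lower (6.61% and 3.64% of all genes). Without enriched replicate 3, 0 were called higher and 3 lower (0.387% and 0.329% of all genes). Cyc1 and Ndufab1, subunits of the respiratory chain, were at -1.02 ± 0.38 and -0.97 ± 0.28 (SE) in the 8 libraries without passing the test. The 13 mitochondrially encoded genes had a median of 0.31, the proteasome genes (39) one of -0.06, and neither list held a called gene.

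**Figure D3:**
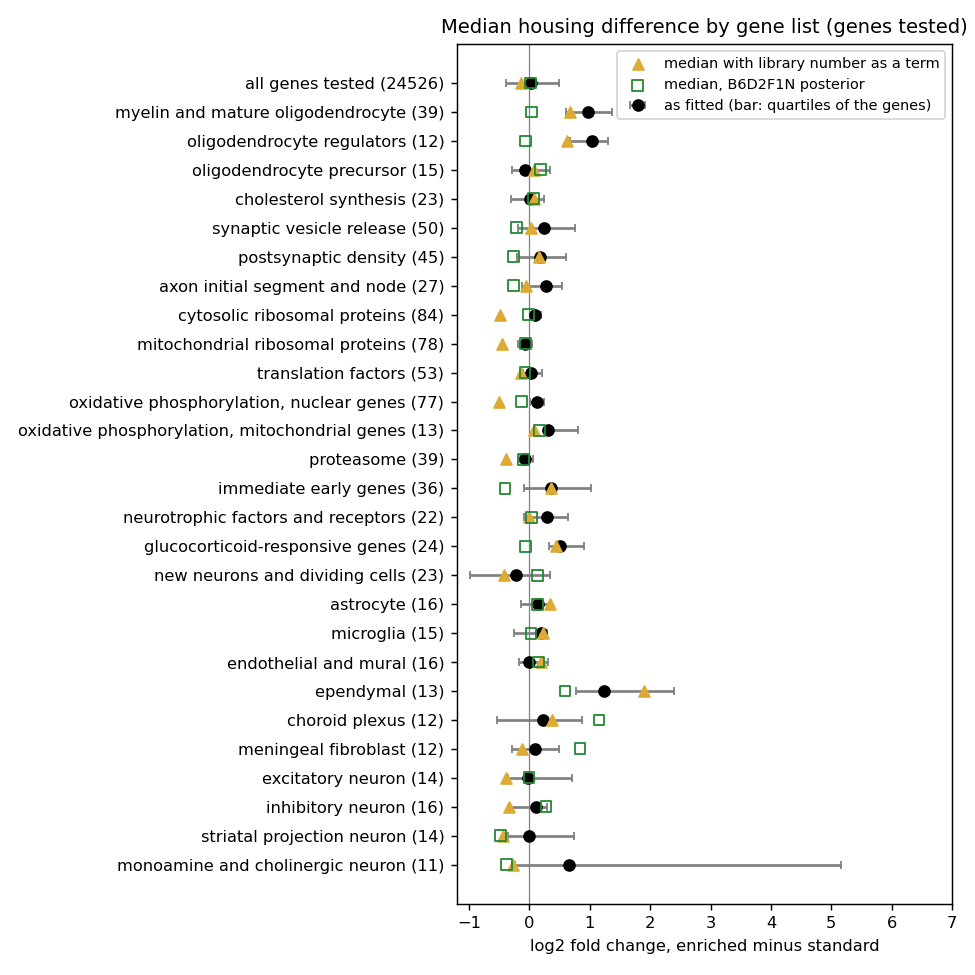
Median log2 fold change of enriched against standard housing (x axis) for all genes tested and 27 gene lists (y axis, number tested in brackets). Circles with bars give the median and quartiles over genes in C57BL/6J posterior libraries, triangles the median with library number as a term, and open squares the median in B6D2F1N posterior libraries. The myelin, oligodendrocyte regulator and ependymal lists are at 0.97, 1.03 and 1.24, and the ribosomal lists at 0.10 and -0.06 turn to -0.48 and -0.45 with the library number as a term.

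Immediate early genes, which neurons switch on within minutes of activity, had a median log2 fold change of 0.36 over 36 genes, with none called. For 7 of them (2.91% of all genes) the enriched libraries lay above all standard libraries. Egr1, a transcription factor of this class, was at 21.2, 8, 12.1 and 15.7 CPM in standard and at 49.2, 38.6, 38.5 and 25.5 CPM in enriched libraries (log2 fold change 1.41 ± 0.31, SE, adjusted p = 0.172). Arc, which regulates AMPA receptor traffic, was at 195 CPM in enriched replicate 1 and at 19.4 to 31.6 CPM in the other enriched libraries, all above the 4.23 to 15.1 CPM of the standard libraries. The growth factor genes (22 neurotrophic factors and receptors) had a median of 0.29 with none called.

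Glucocorticoid-responsive genes had a median log2 fold change of 0.50, and 23 of 24 values were above 0 (12671 of the 24526 genes tested were), none of them called. Plin4, a lipid droplet coat protein, was at 6.36, 5.97, 5.05 and 6.7 CPM in standard and at 18.4, 18.5, 15.5 and 18.7 CPM in enriched libraries. Both groups were tight and far apart (log2 fold change 1.56 ± 0.28, SE, adjusted p = 0.107). Ddit4, an inhibitor of mTOR signalling, had a log2 fold change of 2.13 ± 0.40 with an adjusted p of 0.116. New neurons and dividing cells (23 genes tested) had a median of -0.22 and no called gene.

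Chrna6, a nicotinic receptor subunit of dopaminergic and retinal pathways, had 0 counts in all 4 standard libraries and was at 1.03, 10.8, 0.805 and 3.94 CPM in enriched libraries. Against the limit that 0 counts allow, 3 counts in each standard library, its mean was at least 32.4-fold higher in enriched libraries (adjusted p = 0.105). Enriched replicate 2 held most of it. Csrp1, a LIM domain protein, was at 4.2, 4.1, 2.41 and 1.51 CPM in standard and at 16.8, 35.4, 13.6 and 12.6 CPM in enriched libraries (adjusted p = 0.0775). B230323A14Rik, antisense to Foxb1, had at most 3 counts in any standard library and 0.134 to 3.12 CPM in enriched libraries (adjusted p = 0.337).

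No gene was called lower by edgeR, and the genes with lower values were named after these were seen, other than Lypd1, a marker of excitatory neurons. Lypd1, a modulator of nicotinic receptors, was at 390, 713, 532 and 731 CPM in standard and at 240, 92.9, 383 and 247 CPM in enriched libraries, without overlap (log2 fold change -1.30 ± 0.35, SE, adjusted p = 0.234). Armc10 was at 35.7 to 57.8 CPM in standard and 15.4 to 25.1 CPM in enriched libraries, and Nptn, a synaptic adhesion protein, at 315 to 431 and 163 to 259 CPM. Zfp57, a zinc finger protein that protects imprinted methylation, was at 68.5 to 83 and 16.9 to 44.1 CPM. DESeq2 called all 4 of these genes lower.

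Markers of other cells were measured beside these genes. Astrocyte markers (16 genes) had a median log2 fold change of 0.15 and sums of 7267 to 10287 CPM in standard and 7563 to 10912 CPM in enriched libraries, with Gfap, the filament of reactive astrocytes, at 289 ± 73.7 and 620 ± 165 CPM (SD, n = 4 each, adjusted p = 0.186). Microglia markers (15 genes) had a median of 0.19 and overlapping sums. Ependymal markers (13 genes) had a median of 1.24, and all 13 values were above 0, none of them called (6 higher at an unadjusted p under 0.05 and 2 by DESeq2, against 6.61% and 1.04% of all genes). Their sum was 56.8 to 93.5 CPM in standard libraries and 73.6 to 333 CPM in enriched libraries, the highest in replicate 3, and the median without replicate 3 was 0.67. In this library all 13 ependymal genes were above every standard library, as were 24.1% of all genes. Foxj1, the transcription factor of motile cilia, was at 0.873, 0.746, 0 and 0.472 CPM in standard and at 4.03, 5.58, 16.3 and 2.46 CPM in enriched libraries. Choroid plexus markers summed to 304 to 1535 and 175 to 1428 CPM, and Ttr, their most common transcript, overlapped between groups. Markers of excitatory (14), inhibitory (16) and striatal projection neurons (14) had medians of -0.02, 0.10 and -0.01. The part of these cells in the myelin difference was not tested.

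Many myelin genes also varied with the library number in the libraries of the other groups. In the other 27 libraries, with the group as a covariate, 760 of 28757 genes were higher (2.64%) and 495 lower (1.72%) with the library number. Most B6D2F1N mice gave both an anterior and a posterior library to this fit. It held no term for the mouse, so that its p-values treat libraries of the same mouse as independent. Of the 39 myelin genes, 26 were higher and 1, Hapln2, was lower, with a median of 0.57 on the log2 scale per 10 numbers. Mbp had a slope of 0.94 ± 0.17 (SE, adjusted p = 0.00151), Mobp of 0.86 ± 0.16 and Plin4 of 1.05 ± 0.19. Of the other genes called for housing, Padi2 (0.63 ± 0.18, adjusted p = 0.0401) and Trp53inp2 (0.44 ± 0.12, adjusted p = 0.0335) also rose with the number, and 9130024F11Rik did not pass (0.83 ± 0.38, adjusted p = 0.218). The slopes of Dlg4 (0.15 ± 0.12) and Egr1 (0.10 ± 0.10) did not pass the test. Ribosomal and respiratory genes moved with the number too, with 20 of 84 cytosolic ribosomal protein genes higher and none lower, and 33 of 77 nuclear oxidative phosphorylation genes higher and 4 lower. Of the 78 mitochondrial ribosomal protein genes, 1 was higher and 4 were lower. Of the 24 glucocorticoid-responsive genes tested, 8 were higher and 0 lower with the number.

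**Figure D4:**
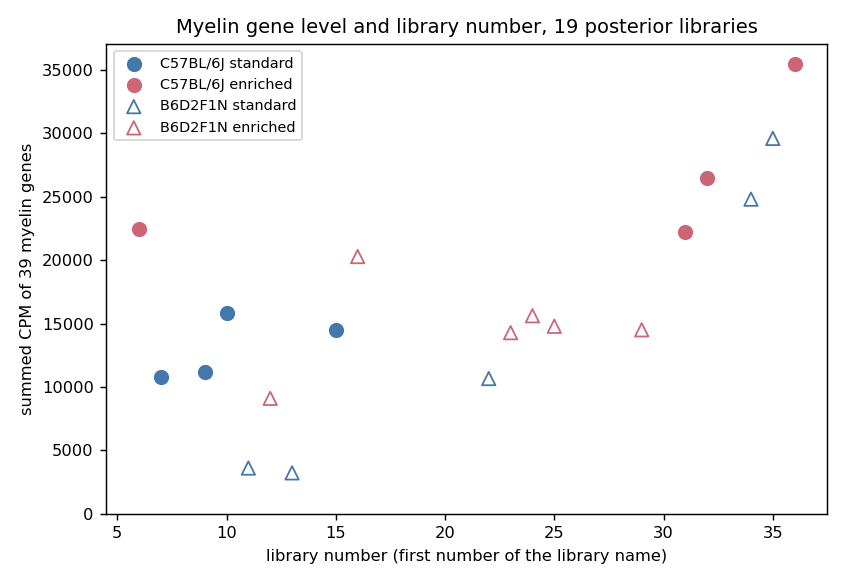
Summed CPM of the 39 myelin genes (y axis) against the first number of the library name (x axis) in the 19 posterior libraries, scaled over all 35 libraries. C57BL/6J enriched libraries 31, 32 and 36 lie beside the B6D2F1N standard libraries 34 and 35, and the C57BL/6J enriched library 6 lies above the C57BL/6J standard libraries 7 to 15.

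Across 12014 genes with a mean log2 CPM above 2, the housing difference and the slope per library number correlated at Pearson's r = 0.49 and Spearman's rho = 0.45. This is a description across genes, which share libraries and are not independent replicates. With the slope from the 11 B6D2F1N posterior libraries alone the values were 0.57 and 0.54. Over all 24121 genes tested in both they were 0.17 and 0.23, and 0.21 and 0.30 over 23480 genes with the B6D2F1N slope. With the slope per second number, which does not overlap between the housings, they were -0.48 and -0.46 over the 12014 genes and -0.17 and -0.23 over all. Of the 319 genes called by DESeq2 for housing, 80 were also called for the library number, which is 25.1% of the former and 6.37% of the latter. The direction was the same for 79 of these 80. Of all genes tested, 2.64% were called higher and 1.72% lower for the library number. For housing, DESeq2 called 1.04% of all genes higher and 0.261% lower.

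**Figure D5:**
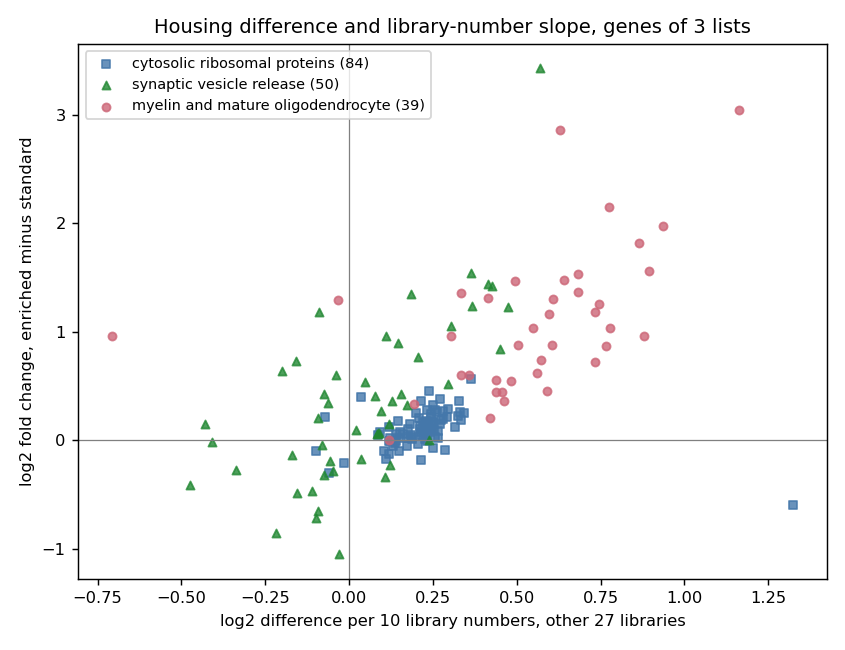
Log2 fold change of enriched against standard housing in the 8 libraries (y axis) against the log2 difference per 10 library numbers in the other 27 libraries (x axis), 1 point per gene. Of the myelin genes (circles) most lie above 0 on both axes, ribosomal protein genes (squares) cluster near 0.23 on the x axis and 0.10 on the y axis, and vesicle genes (triangles) spread around 0.06 and 0.24.

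With library number as a term in the fit of the 8 libraries, 2 genes were called, neither of them among the 4 above. The median over all genes shifted from 0.02 to -0.14, and that of the myelin list from 0.97 to 0.67. That of the glucocorticoid-responsive list shifted from 0.50 to 0.43. Mbp was then at 1.53 ± 0.31 (SE, adjusted p = 0.128) and Padi2 at 2.60 ± 0.46 (adjusted p = 0.0732). When all 19 posterior libraries informed the slope, in a fit added after the data were seen, no gene was called. The myelin median was then 0.13 and that of the glucocorticoid-responsive list 0.14, against -0.05 for all genes. The fit of these 19 libraries without a number term also called no gene, with Mbp at 1.96 (edgeR's quasi-likelihood test, adjusted p = 0.497). Both fits thus called no gene, but their estimates differed. With the number term Mbp was at 0.72 (edgeR's quasi-likelihood test, adjusted p = 0.777). Padi2 was at 2.15 with the term and 2.85 without it, Trp53inp2 at 0.62 and 1.51, and 9130024F11Rik at 2.41 and 3.93. Enriched replicate 3 had the lowest number of the 8 libraries, 6, and its summed myelin CPM of 22196 was above the 16207 of the highest standard library. In that library, 25 of the 39 myelin genes were above all 4 standard libraries (24.1% of all genes were). The second number did not overlap between the housings, so that its part and the housing's cannot be told apart.

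The same contrast in B6D2F1N posterior libraries (6 enriched, 5 standard) gave a myelin median of 0.04 and called 0 of 26028 genes (853 or 3.28% higher and 863 or 3.32% lower at an unadjusted p under 0.05). Mbp was at -0.04 ± 0.68 and Padi2 at 0.49 ± 0.49 (log2, SE). The difference between strains, B6D2F1N minus C57BL/6J, had a myelin median of -1.09 on the log2 scale, and edgeR's interaction term called 0 of 27871 genes (995 or 3.57% higher and 1340 or 4.81% lower at an unadjusted p under 0.05), while DESeq2 called 37. In the B6D2F1N standard group, 1 library had 0 counts of Xist although labelled female, and without it edgeR's interaction term called 14 genes. For Mbp the interaction was -1.99 ± 0.88 (SE, adjusted p = 0.552), and for Padi2 -2.35 ± 0.68 (adjusted p = 0.491), so that a difference between strains was not shown for them. In the anterior portion of C57BL/6J (2 enriched, 4 standard), the myelin median was 0.65 and Mbp was at 1.39 ± 0.42, with 0 of 22865 genes called (745 or 3.26% higher and 673 or 2.94% lower at an unadjusted p under 0.05). In these anterior libraries the first number of the name was 33 and 26 in enriched and 19, 5, 17 and 20 in standard housing. The second number was 15 and 5 against 32, 24, 34 and 26. Neither number overlapped between the housings, so that their part and the housing's cannot be told apart in this portion. The anterior libraries came from mice that also gave posterior libraries. The portion-by-housing term called 0 of 25751 genes (734 or 2.85% higher and 540 or 2.1% lower at an unadjusted p under 0.05).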

How the data were processed

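Laser-captured amygdala RNA was sequenced by the authors as single 72-base reads, trimmed with Trimmomatic 0.38, aligned to GRCm38 with HISAT2 2.1.0 and counted per gene with HTSeq 0.11.2. The deposited values are raw counts per Ensembl gene (52636 genes in each library), and the annotation release and strand setting are not given in the sources used here. Depth, 16938534 to 26126984 counts per library in the comparison, covers counting error only, since reads carried no molecular identifiers, and a count of 0 allows up to 3 counts. HTSeq's lines for unassigned reads (13.7 to 24.4% on no annotated gene) were left out of library sizes. Symbols and positions came from GENCODE M21.

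Genes with at least 10 counts in total were tested with edgeR 4.0.16 (R 4.3.3, TMM factors, quasi-likelihood F test, Benjamini-Hochberg adjustment over all genes tested, threshold 0.05), unpaired and without covariates. CPM carry TMM factors. DESeq2 1.42.0, other scalings, filters, library-number terms and each library left out were alternatives. The code was tested on simulated data. Windows of 72 bases were matched to other genes with BWA 0.7.19, at up to 2 mismatches, and 20% shared windows marked a gene as uncertain. Members and gene lists were chosen with earlier results of these data known. Genes were named as called genes with the smallest p-values (up to 12 in each direction, and up to 6 of each list), genes the study named for this contrast, which are not independent evidence, the first 3 markers of each cell type, the 2 smallest p-values of each list without a call, and Xist and Y-linked genes. Others are named as chosen after their values were seen. Some genes are counted in their lists but not reported here by name.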

Additional observations from a re-analysis of the deposited data

Results flagged for a closer look

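In 240 sets of 4 values, each the libraries of 1 housing group, 13 had a library that stood apart from the other 3 by Dixon's criterion (its gap to the nearest value as a share of the group's range), and chance gives about 1 in 20 such sets. Enriched replicate 3 had the lowest number of genes detected in its group (21415, against a median of 22942 in the other 3) and the highest summed endothelial and mural markers (2595 CPM against 1381). Enriched replicate 1 had the highest summed synaptic vesicle genes (18154 CPM against 11690). Striatal projection neuron markers were highest in standard replicate 3 (2897 CPM against 1139) and in enriched replicate 4 (2185 CPM against 448.7).

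Among single genes, values are log2 CPM beside the median of the other 3 libraries of the group. Plin4 was at 3.96 in enriched replicate 3 against 4.22, Psmd5, a proteasome assembly factor, at 5.69 in enriched replicate 1 against 6.48, and Aldh1l1, an astrocyte enzyme, at 4.57 in enriched replicate 4 against 5.52. Iqsec2, a postsynaptic exchange factor, was at 4.56 in standard replicate 3 against 3.99, Ddit4 at 0.98 in standard replicate 4 against 2.74, and Gad1, which makes GABA, at 7.29 in standard replicate 2 against 7.90. B230323A14Rik was at -2.11 in standard replicate 4 and Chrnb3 at -2.95 in standard replicate 3, where the other 3 libraries had 0 counts (-3.48 on this scale).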

How the results depend on the processing

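No paired analysis was possible because each library of the comparison came from another mouse and the labels carry no replicate numbers. Against 4 genes called (4 higher, 0 lower) and 2 called myelin genes, DESeq2 called 319 (255 higher, 64 lower) with 16 myelin genes, no minimum beyond 1 count 112 (96, 16) with 12, total counts without TMM 9 (all higher) with 4, upper quartile factors 2 (both higher) with 1, a library number term 2 (both higher) with 0, and a term for numbers above 20 called 30 (22, 8) with 2, neither of them Mbp or Padi2. A second-number term, all 19 posterior libraries in 1 fit, these with a library number term, and 18 libraries without the one lacking Xist each called 0, with 0 myelin genes. The last pair of these fits was chosen after seeing the data. Leaving out 1 library gave 0 to 172 genes (0 to 93 higher, 0 to 79 lower) and 0 to 8 myelin genes, all above 0 without enriched replicate 3. Vesicle genes called went from 0 to 8 with DESeq2, 4 without the minimum and 0 to 7 with 1 library left out, and postsynaptic genes from 0 to 1, 1 and 0 to 1. No cytosolic ribosomal protein gene was called under any of these settings. The strain term went from 0 to 37 with DESeq2 and 14 without the library lacking Xist, and the portion term from 0 to between 1 and 11 without standard replicates 4 and 1. The library number called 379 genes in the 11 B6D2F1N posterior libraries, against 1255 in 27, and the second number 0 against 8. B230323A14Rik reversed to -3.01 (log2) with the second-number term. The causes were not tested. With 4 mice per group, p-values rest on few libraries.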

Other observations

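Enriched replicate 2 held some markers of dopaminergic neurons at higher levels than the other 7 libraries. Slc6a3, the dopamine transporter, was at 104 CPM in this library, against 0 to 6.73 CPM in the other enriched libraries and 0.896 to 2.2 CPM in the standard libraries. Th, the rate-limiting enzyme of dopamine synthesis, was at 39.6 CPM there and at most 2.89 CPM in the other 7 libraries. Chrnb3, which pairs with Chrna6 in nicotinic receptors, was at 11.3 CPM there and at most 2.57 CPM in the others. The list of monoamine and cholinergic markers summed to 287 CPM in enriched replicate 2 and to 48.7 to 113 CPM in the other 7 libraries. Of its 11 genes tested, 7 had a housing log2 fold change above 0, and not all of them are named here. Chrna6 was also highest in this library, at 10.8 CPM.

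Syt2 and Pvalb, both expressed in fast-spiking interneurons, were high in the same libraries. Pvalb was at 120 and 47.2 CPM in enriched replicates 2 and 4, at 31.2 and 8.22 CPM in replicates 1 and 3, and at 3.35 to 17.5 CPM in standard libraries (adjusted p = 0.26 by edgeR's quasi-likelihood test). Without enriched replicate 3 its adjusted p was 0.0305.

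The uncharacterized 9130024F11Rik had a log2 fold change of 3.95 in C57BL/6J and of -2.60 ± 0.93 (SE) in B6D2F1N posterior libraries. Its interaction had an unadjusted p of 4.16e-05 and an adjusted p of 0.327.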
